A study of Mus musculus with 16 samples.

Results

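The insulin-like growth factor (IGF) ligands, receptors and binding proteins were followed in mouse spinal cord after spinal cord injury (SCI) with and without atorvastatin. The 10 genes were taken by symbol from the 24411 gene symbols of the files: the ligands Igf1 and Igf2, the receptors Igf1r and Igf2r, and the binding proteins Igfbp2 to Igfbp7. All 10 were among the 16091 genes tested, which had a mean TPM (transcript level corrected for gene length and library size) above 1 in at least 1 condition. The mice were female C57BL/6J, and each library is 1 mouse described as a biological replicate. The SCI + Atorvastatin group (n = 7) received a 0.25 mm lateral compression of the cord at 12 wk of age, under ketamine and xylazine, and then daily atorvastatin, a statin that inhibits cholesterol synthesis, at 10 mg/kg for 4 wk from 2 wk post-injury. The SCI + Vehicle group (n = 7) had the same injury and daily injections of the solvent alone, a mixture of saline, polyethylene glycol, Tween 80 and dimethyl sulfoxide. The Uninjured Control group (n = 2) had neither injury nor treatment, so anesthesia, surgery, injections and injury differ together between it and both SCI groups. All mice were perfused with saline, and a 5 mm piece of cord around the injury, or the same level in controls, was taken, at 6 wk post-injury in the SCI groups. The control mice were 12 wk old by the sample labels and so 6 wk younger at isolation than the SCI mice, whereas the study's methods give the controls an older age, still below that of the SCI mice.

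IGF1 and IGF2 are secreted growth factors that signal through the IGF1 receptor, a tyrosine kinase coupled to the PI3K/AKT and ERK pathways, and they promote survival and growth of neurons and glia. The IGF2 receptor has no kinase activity and clears IGF2 by carrying it to lysosomes. IGF-binding proteins (IGFBPs) hold the ligands outside cells, and proteases release them. In the cord, microglia and macrophages are known sources of Igf1, whereas Igf2 in adult brain and cord comes largely from the meninges, choroid plexus and vessel-associated cells.

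Libraries held 14823292 to 25579826 counts on genes, and limits set at 3 counts cover counting error only, whereas the intervals of fold changes include the spread between mice. Neuron markers were above 0 in every mouse (9 of 9 genes), as were all 7 oligodendrocyte and all 7 astrocyte markers, which fits the labelled tissue. Each control library also held liver transcripts, with 13 of 14 liver markers above 0 in both mice. Their summed TPM was 8064 and 1370 in control replicates 1 and 2 and at most 16.0 in any SCI mouse. The microglia and macrophage list summed to 126 and 134 TPM in the controls, with 4 of 10 genes above 0 in both mice and 1 at 0 in both, against 1562 to 3623 in SCI + Vehicle and 2594 to 4059 in SCI + Atorvastatin. SCI + Vehicle replicates 4 and 7 stood apart on the fibroblast and meninges list of 10 genes, with 94.8 and 65.4 TPM against 405 to 770 in the other SCI + Vehicle mice. In bulk cord, fewer cells of a type and less RNA per cell cannot be told apart.

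**Figure D1:**
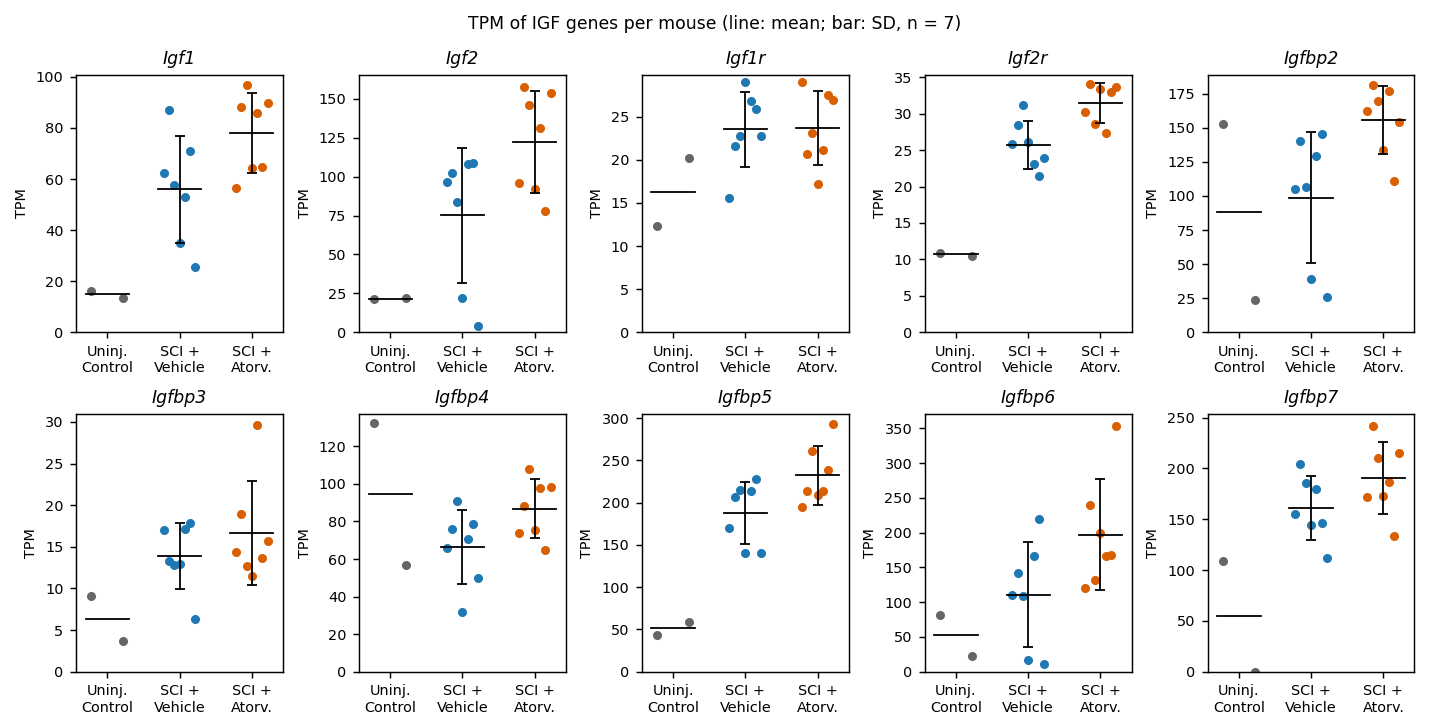
TPM of the 10 IGF genes in each mouse (points), with the group mean (line) and, for the SCI groups, the SD (bar, n = 7). Every SCI mouse lies above both controls for Igf1, Igf2r, Igfbp5 and Igfbp7, and SCI + Vehicle replicates 4 and 7 hold the 2 lowest Igf2, Igfbp2 and Igfbp6 values of that group.

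A gene was called against the controls when it differed by over 1.25-fold in either direction with an adjusted p below 0.05. This held for 4 of the 10 IGF genes in SCI + Vehicle vs. Uninjured Control by edgeR (Igf1, Igf2r, Igfbp5 and Igfbp7), all upregulated. Of all 16091 genes, 29.4% were called and 19.8% called upregulated in that comparison. In SCI + Atorvastatin vs. Uninjured Control 6 of 10 were called, these genes with Igf2 and Igfbp6, all upregulated, where 38.9% of all genes were called and 24.9% called upregulated. The median log2 fold change of the 10 genes was 0.93 and 1.42, and that of all genes 0.17 and 0.21. Under voom with a weight per group, which lets the controls vary more than the SCI mice, 0 of 10 passed in either comparison. That fit called 133 (0.827%) and 146 (0.907%) of all genes. In each comparison 3 of the 10 had an unadjusted p below 0.05 in it, against 8.44% and 11.2% of all genes. For the genes called by edgeR, its adjusted p ran from 0.323 to 0.588 in SCI + Vehicle and from 0.102 to 0.541 in SCI + Atorvastatin. With DESeq2, 4 and 6 of the 10 genes were called, against 6000 and 7207 of all 16091 genes.

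Both ligands were higher in the injured cord, Igf1 in every SCI mouse and Igf2 in every SCI + Atorvastatin mouse. Igf1 (GRCm38, chr10:87858265-87937047) was at 16.2 and 13.5 TPM in the controls. In SCI + Vehicle it ran from 25.7 to 87.2 TPM with a median of 57.6, and in SCI + Atorvastatin from 56.6 to 96.7 with a median of 85.9. No SCI mouse overlapped the controls. By counts, Igf1 was upregulated 6.64-fold (log2 fold change 2.73, SE 0.611, adjusted p = 0.00738) in SCI + Vehicle vs. Uninjured Control and 9.66-fold (3.27, SE 0.498, adjusted p = 0.00063) in SCI + Atorvastatin vs. Uninjured Control, by edgeR's quasi-likelihood test with Benjamini-Hochberg adjustment. The controls held 452 and 121 counts of Igf1, although their TPM values were close. In control replicate 2 the TPM per count was 4.22 times the median of the SCI mice, which spanned 0.711 to 1.16 over the 10 genes. Igf1 was thus 17.1-fold higher in SCI + Vehicle without control replicate 1 and 4.12-fold higher without control replicate 2. In SCI + Atorvastatin the same fits gave 24.8-fold and 5.96-fold, and the ratios of group mean TPM were 3.77 and 5.25. With 1 control left, a fit holds no spread between controls, so only sizes are given for these fits. The microglia and macrophage list above was also higher in every SCI mouse than in the controls, and its part in the Igf1 difference was not tested. Control replicate 1, with the higher Igf1 counts, also had the higher liver list. The part of liver RNA in the control Igf1 counts was not tested either.

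Igf2 (chr7:142650768-142666816), the fetal-type ligand that is expressed from the paternal allele in most tissues, was at 21.1 and 22.3 TPM in the controls. In SCI + Atorvastatin it ran from 78.2 to 158 TPM with a median of 131, above both controls in 7 of 7 mice. In SCI + Vehicle it ran from 4.06 to 109 TPM with a median of 96.5. Of those 7 mice, 5 lay at 83.4 TPM or more, whereas replicate 4 was at 21.9 and replicate 7 at 4.06. Igf2 was upregulated 4.70-fold (log2 fold change 2.23, SE 0.32, adjusted p = 0.000462) in SCI + Atorvastatin vs. Uninjured Control. The SCI + Vehicle comparison gave 2.81-fold (1.49, SE 0.854, adjusted p = 0.218), which did not pass. Without replicate 7 the SCI + Vehicle comparison passed (log2 fold change 1.69, adjusted p = 0.0348), as it did without replicates 4 and 7 (1.89, adjusted p = 0.000501), a fit that called 27.2% of all genes. Igf2os, annotated on the opposite strand of Igf2, held at most 49 counts in any mouse, against at least 209 for Igf2.

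The sequences directly upstream of the starts of Igf2, Igfbp2 and Igfbp6 are shown because these genes had their 2 lowest SCI + Vehicle levels in the same mice. They were picked after their values were seen from 7 genes with this trait by TPM, and the windows of the others (Igf1, Igfbp4, Igfbp5 and Igfbp7) are not shown. Each is the 250 bases before a RefSeq start on GRCm38.p6, written 5′ to 3′ on the gene's strand. For Igf2, which has 4 starts in the table, the window shown is chr7:142658805-142659054 (minus strand). Igfbp2, with 2 starts in the table, is shown at chr1:72824230-72824479 (plus strand) and Igfbp6 chr15:102143936-102144185 (plus strand). Capitals mark the GC box (GGGCGG), the TATA box (TATAAA) and the TEAD core (CATTCC), searched on both strands and without overlaps here.
Igf2: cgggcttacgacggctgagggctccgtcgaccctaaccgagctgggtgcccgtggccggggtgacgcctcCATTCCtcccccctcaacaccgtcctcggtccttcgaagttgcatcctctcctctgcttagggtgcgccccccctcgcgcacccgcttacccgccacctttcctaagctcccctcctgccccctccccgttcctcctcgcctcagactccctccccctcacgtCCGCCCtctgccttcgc
Igfbp2: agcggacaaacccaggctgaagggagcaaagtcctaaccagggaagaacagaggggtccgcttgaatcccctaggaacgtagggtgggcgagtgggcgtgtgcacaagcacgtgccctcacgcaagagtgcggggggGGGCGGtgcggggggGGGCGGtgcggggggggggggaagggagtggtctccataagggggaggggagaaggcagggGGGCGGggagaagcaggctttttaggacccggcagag
Igfbp6: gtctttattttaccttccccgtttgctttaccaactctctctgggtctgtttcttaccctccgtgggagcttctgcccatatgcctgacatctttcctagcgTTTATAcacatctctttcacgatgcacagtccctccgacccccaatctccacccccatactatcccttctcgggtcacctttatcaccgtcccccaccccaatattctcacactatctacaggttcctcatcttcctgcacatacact
The Igf2 window shown held 1 GC box, 1 TEAD core and 22 CpG dinucleotides, the most CpG of its 4 starts. Those of its other starts held 6, 10 and 1 CpG, 2, 0 and 0 GC boxes, and 1, 2 and 0 TEAD cores. The Igfbp2 window shown held 3 GC boxes and 14 CpG, where that of its other start held 0 and 11, and the Igfbp6 window 1 TATA box and 7 CpG, against a median of 6 CpG over 32851 windows. Of all windows, 32.7% held the GC box, 12.4% the TATA box and 12.6% the TEAD core. A match is a description of the letters only.

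The receptors differed from each other. Igf2r (chr17:12682406-12769706) had the tightest values of the 10 genes, at 10.9 and 10.5 TPM in the controls, 21.4 to 31.1 in SCI + Vehicle (median 25.9) and 27.4 to 34.1 in SCI + Atorvastatin (median 33.0). All 14 SCI mice were above both controls, and the SCI groups overlapped each other. Igf2r was upregulated 2.22-fold (log2 fold change 1.15, SE 0.156, adjusted p = 0.000519) in SCI + Vehicle and 2.74-fold (1.46, SE 0.113, adjusted p = 1.94e-05) in SCI + Atorvastatin, each vs. Uninjured Control. The call held with each mouse left out in turn (adjusted p at most 0.00171 and 0.000126). Airn, the long noncoding RNA transcribed from the opposite strand within Igf2r, held 41 to 181 counts in the SCI mice and 0 in both controls, against at least 1413 counts of Igf2r in the SCI mice. Whether counting used strand is not given in the sources used here.

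Igf1r (chr7:67952257-68233668) was at 12.3 and 20.2 TPM in the controls, 15.6 to 29.0 in SCI + Vehicle (median 22.8) and 17.2 to 29.0 in SCI + Atorvastatin (median 23.1). The groups overlapped. Its log2 fold change was 0.26 (95% interval -0.17 to 0.69, adjusted p = 0.349) in SCI + Vehicle and 0.28 (-0.13 to 0.69, adjusted p = 0.257) in SCI + Atorvastatin vs. Uninjured Control, neither past the threshold. These intervals leave room for a 1.61-fold higher level in either SCI group. Insr, the insulin receptor, gave 0.23 and 0.32 (adjusted p = 0.691 and 0.527).

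Of the 6 binding proteins, Igfbp5 and Igfbp7 were upregulated in both SCI groups and Igfbp6 in SCI + Atorvastatin vs. Uninjured Control, while Igfbp2, Igfbp3 and Igfbp4 passed in neither comparison. Igfbp5 (chr1:72858065-72874865), which binds matrix as well as IGFs, was at 43.9 and 59.1 TPM in the controls. It ran from 140 to 228 in SCI + Vehicle (median 207) and from 194 to 293 in SCI + Atorvastatin (median 214), so no SCI mouse overlapped the controls. The changes were 2.94-fold (log2 fold change 1.56, SE 0.204, adjusted p = 0.000426) and 3.70-fold (1.89, SE 0.172, adjusted p = 4.01e-05). Leaving out single mice moved them only from 1.48 to 1.64 and from 1.81 to 1.97 on the log2 scale. Igfbp2 lies 5590 bp from Igfbp5 on chromosome 1.

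Igfbp7 (chr5:77349240-77408045), a related protein of vessels that binds IGFs weakly, was at 44.5 and 15.9 CPM (counts scaled to library size) in the controls, 52.0 to 78.5 in SCI + Vehicle (median 61.1) and 51.9 to 100.2 in SCI + Atorvastatin (median 81.3). All 14 SCI mice were above both controls. Its TPM was 109 and 0 in the controls, so control replicate 2 is listed at 0 TPM despite its counts, and the TPM scale was not used for the size of this change. By counts Igfbp7 was upregulated 2.10-fold (log2 fold change 1.07, SE 0.326, adjusted p = 0.0319) in SCI + Vehicle and 2.62-fold (1.39, SE 0.372, adjusted p = 0.0138) in SCI + Atorvastatin. The SCI + Vehicle call was lost without control replicate 2 (1.42-fold, adjusted p = 0.0737) and without SCI + Vehicle replicate 2, 3 or 5 (adjusted p = 0.0573, 0.0565 and 0.0506). Without control replicate 1 the folds were 3.98 and 4.98, and in SCI + Atorvastatin without control replicate 2 it was 1.77. The gene overlaps Polr2b on the opposite strand.

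Igfbp6 (chr15:102144186-102149512), which prefers IGF2 over IGF1, was at 81.0 and 23.3 TPM in the controls. In SCI + Atorvastatin it ran from 120.8 to 353.6 (median 167.3), above both controls in every mouse. In SCI + Vehicle it ran from 11.6 to 220 (median 110), with replicates 4 (17.1) and 7 (11.6) below both controls. The SCI + Atorvastatin change was 3.14-fold (log2 fold change 1.65, SE 0.587, adjusted p = 0.0474), close to the threshold. It was lost when any of replicates 2 to 7 was left out (adjusted p from 0.0577 to 0.0751), and without control replicate 2 (1.89-fold). Without control replicate 1 the change was 9.15-fold. SCI + Vehicle gave a log2 fold change of 0.79 (SE 0.99, adjusted p = 0.59).

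The values of Igfbp2, Igfbp3 and Igfbp4 against the controls depended on which control was used. With 1 control left, a fit holds no spread between controls, so only sizes are given for such fits of these genes. Igfbp2 (chr1:72824480-72852474) was at 153 and 24.1 TPM in control replicates 1 and 2, 26.2 to 145 in SCI + Vehicle (median 106) and 111 to 181 in SCI + Atorvastatin (median 162). By TPM 5 of 7 SCI + Atorvastatin mice and 0 of 7 SCI + Vehicle mice were above both controls, and by CPM 0 of either group. The log2 fold changes were -0.22 (adjusted p = 0.84) and 0.45 (adjusted p = 0.514). Without control replicate 1 they became 1.65 and 2.32, and without control replicate 2, -1.01 and -0.35.

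Igfbp4 (chr11:99040005-99052655), an inhibitory binding protein that PAPP-A cleaves, was at 132 and 56.8 TPM in the controls, 31.9 to 90.9 in SCI + Vehicle (median 70.6) and 64.9 to 108 in SCI + Atorvastatin (median 88.4). No SCI mouse reached control replicate 1. Its log2 fold changes were -0.83 (adjusted p = 0.106) and -0.47 (adjusted p = 0.281). They were -1.37 and -1.02 without control replicate 2, and 0.03 and 0.39 without control replicate 1. Control replicate 1 had the higher liver list and the higher level of Igfbp2 and Igfbp4, both of which liver also expresses, and the part of liver RNA was not tested. Igfbp1, on the wider pathway lists, was below the TPM filter in every group, with 0 counts in both controls and at most 7 in any SCI mouse.

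Igfbp3 (chr11:7206086-7215498), the main carrier of IGFs in blood, had the lowest mean of the 10 genes in each group, at 9.11 and 3.63 TPM in the controls, 6.35 to 17.8 in SCI + Vehicle (median 13.3) and 11.4 to 29.7 in SCI + Atorvastatin (median 14.3). By TPM 6 of 7 SCI + Vehicle mice and 7 of 7 SCI + Atorvastatin mice were above both controls, but by CPM only 4 and 5 were. The log2 fold changes were 0.47 (adjusted p = 0.489) and 0.73 (adjusted p = 0.229). In SCI + Atorvastatin the log2 fold change was 1.22 without control replicate 1 and 0.36 without control replicate 2.

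**Figure D2:**
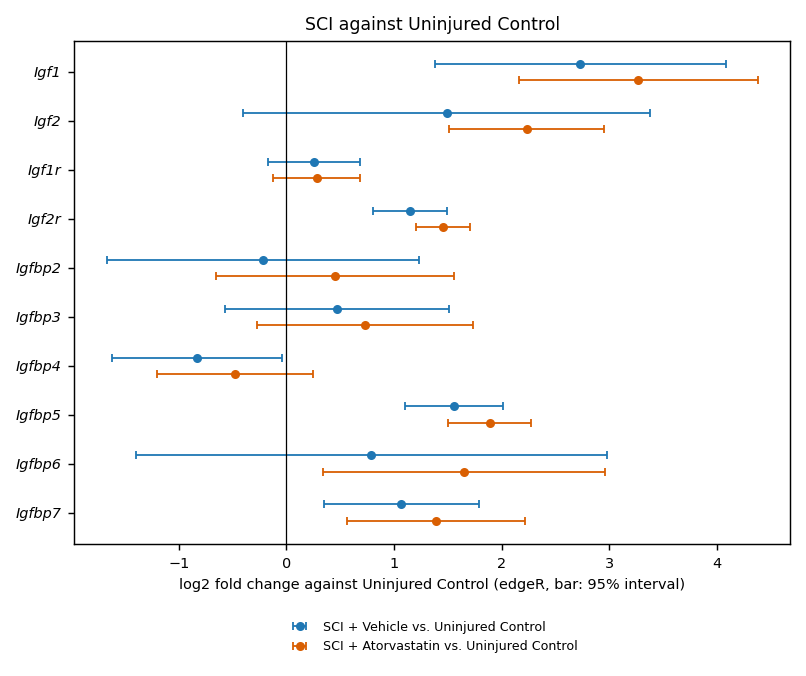
Log2 fold change of each IGF gene (points) with its 95% interval (bars) in SCI + Vehicle and in SCI + Atorvastatin vs. Uninjured Control, from edgeR; both comparisons use the same 2 controls. Igf1, Igf2r, Igfbp5 and Igfbp7 lie above 0 in both, Igf1r near 0, and the intervals of Igfbp2, Igfbp3 and Igfbp6 are wide.

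By mean TPM, Igfbp5 was the highest of the 10 in both SCI groups, at 232 ± 34.4 (SD, n = 7) in SCI + Atorvastatin and 188 ± 37.0 (SD, n = 7) in SCI + Vehicle. The controls did not share an order. In control replicate 2 Igfbp5 was also the highest, at 59.1 TPM with Igfbp4 next at 56.8, whereas in control replicate 1 Igfbp2 was the highest at 153 and Igfbp5, at 43.9, was below Igfbp4, Igfbp7 and Igfbp6 as well. In SCI + Atorvastatin the next were Igfbp6 at 197 ± 79.9, Igfbp7 at 190 ± 35.4 and Igfbp2 at 156 ± 25.2. Igfbp6 was above Igfbp7 in 3 of 7 mice, so these neighbours were not separated. Igfbp7 was above Igfbp2, Igfbp2 above Igf2, Igf2 above Igfbp4, Igfbp4 above Igf1 and Igf1 above Igf2r in 7 of 7 mice each. In SCI + Vehicle, Igf2 was above Igfbp4 in 4 of 7 mice and Igf2r above Igf1r in 4 of 7, and neither pair was separated.

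Summed over the 2 ligands, TPM was 37.3 and 35.8 in the controls, 131 ± 62.4 (SD, n = 7) in SCI + Vehicle and 200 ± 47.5 (SD, n = 7) in SCI + Atorvastatin. Summed over Igfbp2 to Igfbp7 it was 639 ± 198 and 878 ± 143 in the SCI groups. The SCI + Vehicle sum was 345.3 in replicate 7 and 386.1 in replicate 4, with the other mice from 623.1 to 836.0. Binding protein TPM per ligand TPM had a median of 4.81 in SCI + Vehicle and 4.65 in SCI + Atorvastatin. Among the SCI mice it was highest in SCI + Vehicle replicate 7, at 11.6. The controls gave 14.1 in replicate 1 and 4.66 in replicate 2, with binding protein sums of 528 and 167 TPM. In control replicate 2 Igfbp7 is listed at 0 TPM despite its counts. Its Igf1 TPM per count was 4.22 times the median of the SCI mice. Both enter the sums of control replicate 2 and lower its ratio, so 4.66 cannot be set against the SCI medians. Igf2 exceeded Igf1 in every SCI + Atorvastatin mouse, by 1.21 to 1.79 times, but was 0.158 and 0.628 times Igf1 in SCI + Vehicle replicates 7 and 4.

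Between the treatments, 9 of 10 genes were higher in SCI + Atorvastatin, and 0 passed the study's threshold for this comparison, a difference over 1.25-fold with an unadjusted p below 0.001. At that threshold 0.106% of all genes were called (17 of 16091), and 0 passed an adjusted p of 0.05. Of the 10 genes 5 had an unadjusted p below 0.05 by edgeR and also 5 by DESeq2, against 7.03% of all genes, and 48.7% of all genes were higher in SCI + Atorvastatin. The median log2 fold change of the 10 was 0.32.

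Igf2r gave the smallest p of the 10, with a log2 fold change of 0.28 (95% interval 0.11 to 0.45), an unadjusted p of 0.00231 and an adjusted p of 0.68 by edgeR. All 7 SCI + Atorvastatin mice were above the SCI + Vehicle median, and 4 of 7 above every SCI + Vehicle mouse. Without SCI + Vehicle replicate 3, the highest of its group, the log2 fold change was 0.32 at an unadjusted edgeR p of 0.000547, past the study's threshold, with an adjusted p of 0.658. The other 4 genes were Igf1 at 0.52 (0.10 to 0.93), Igfbp2 at 0.64 (0.12 to 1.17), Igfbp5 at 0.31 (0.08 to 0.54) and Igfbp7 at 0.30 (0.04 to 0.56). Their adjusted p was 0.68 to 0.69 in edgeR.

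Igfbp6 at 0.84 (95% interval -0.07 to 1.74) and Igf2 at 0.72 (-0.08 to 1.52) had the 2 largest log2 fold changes and the widest intervals. For both genes the low end of the SCI + Vehicle values was replicates 4 and 7. Igfbp4 gave 0.33 (-0.02 to 0.69) and Igfbp3 0.23 (-0.27 to 0.74). Igf1r gave 0.00 (-0.24 to 0.24), so a difference above 1.18-fold in either direction lay outside its interval.

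With SCI + Vehicle replicates 4 and 7 left out, a choice made after their values were seen, the differences shrank. Igf2 fell from 0.72 to 0.31, Igfbp6 from 0.84 to 0.41, Igfbp2 from 0.64 to 0.31 and Igf1 from 0.52 to 0.26 on the log2 scale. Igf2r stayed at 0.26 (unadjusted p = 0.00989 and adjusted p = 1 in edgeR). Then 10 of 10 genes were higher in SCI + Atorvastatin, against 49.6% of all genes. Of the 10, 2 had an unadjusted p below 0.05 in edgeR (Igf2r and Igfbp2), against 4.25% of all genes. At the study's threshold 0 passed, against 0.0186% of all genes.

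**Figure D3:**
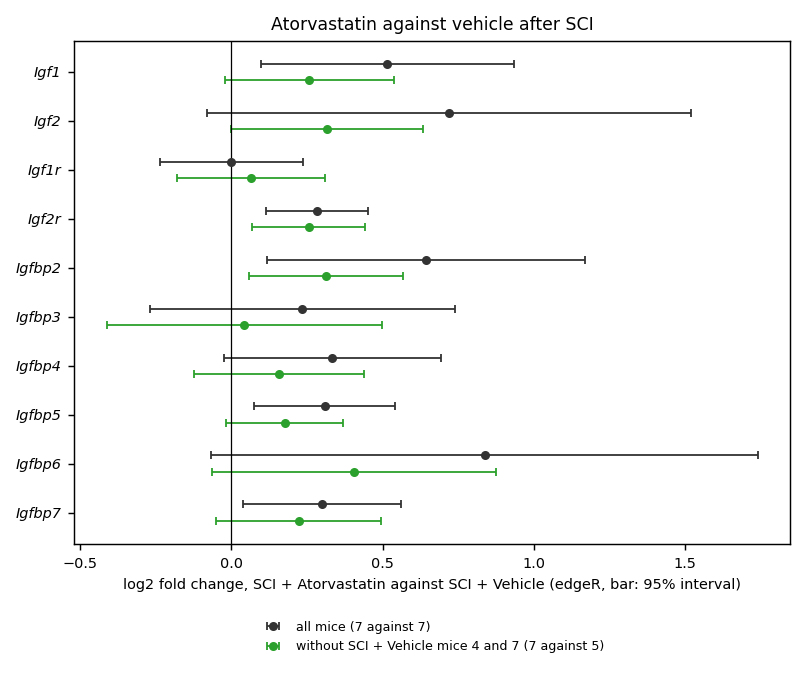
Log2 fold change of each IGF gene in SCI + Atorvastatin vs. SCI + Vehicle with its 95% interval, from edgeR, with all mice and without SCI + Vehicle replicates 4 and 7. Igf2, Igfbp2 and Igfbp6 lie nearer 0 without these mice, and Igf2r hardly differs.

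The low mice were shared by several genes. SCI + Vehicle replicates 4 and 7 held the 2 lowest values of that group for Igf1 (34.9 and 25.7 TPM), Igf2, Igfbp2 (39.2 and 26.2), Igfbp4 (31.9 and 49.6), Igfbp5 (140 in both), Igfbp6 and Igfbp7 (145 and 112). Igf1r in the same mice was 29.0, the highest of the group, and 22.8 TPM, and Igf2r was 26.1 and 23.9, within the range of the others. Replicate 4 had the smallest library (14823292 counts), while replicate 7 had 23548667. The fibroblast and meninges list in these mice was below both controls (168 and 146 TPM), and in SCI + Atorvastatin it ran from 515 to 1260. In SCI + Atorvastatin vs. SCI + Vehicle all 10 genes of that list were higher, with 0 called. Replicate 7 also had the lowest microglia and macrophage sum of the SCI mice (1562 TPM) and the highest neuron sum of them (7374). The part of these cell types in the IGF differences was not tested.

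**Figure D4:**
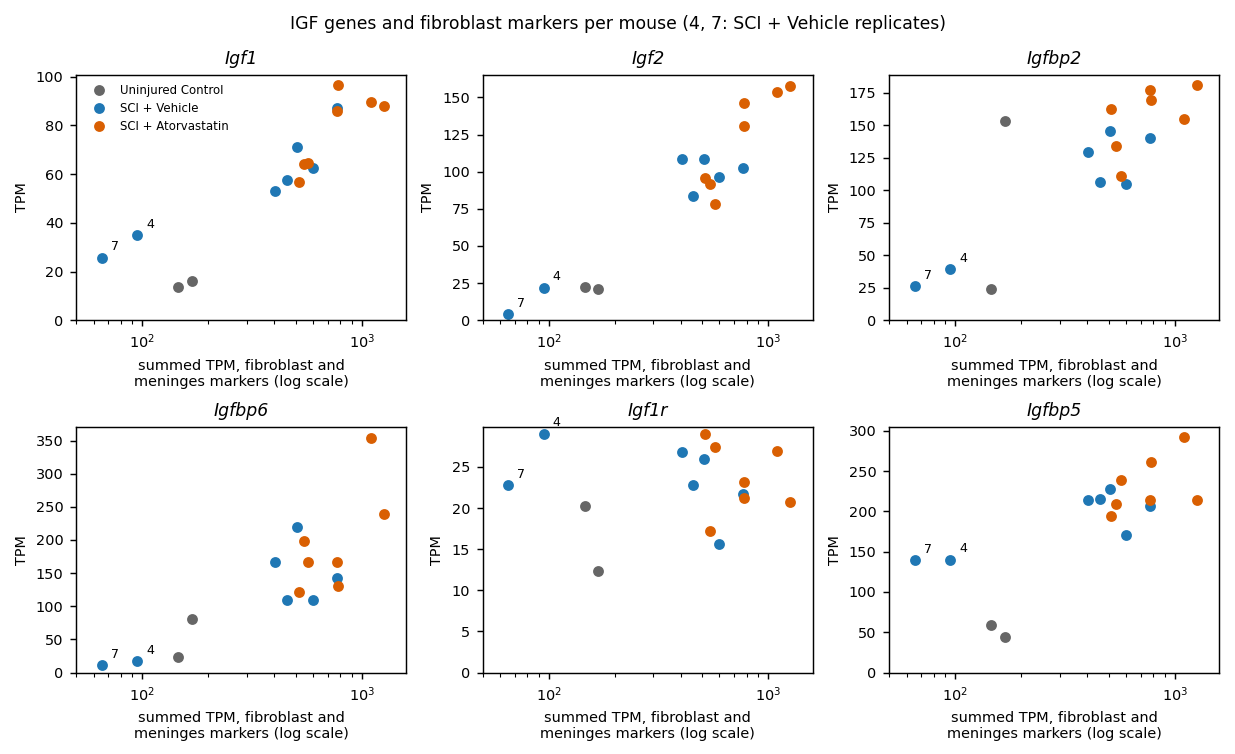
TPM of 6 IGF genes against the summed TPM of 10 fibroblast and meninges markers (log axis) in each of the 16 mice, with SCI + Vehicle replicates 4 and 7 numbered. Among the SCI mice, Igf2 and Igfbp6 are lowest in the mice with the lowest marker sums, while Igf1r is not. The controls also have low marker sums, and one of them has the lowest Igf1r.

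The genes whose profile was most like each IGF gene were found over the 14 SCI mice, by Pearson's r of log2 CPM after removing group means. These points share libraries and marker levels, and r is given as a description with no test. For Igf2 they included Fmod (r = 0.99), which encodes the collagen-binding protein fibromodulin, and the Schwann cell myelin gene Prx (0.979). Without SCI + Vehicle replicates 4 and 7 these were 0.929 and 0.769. For Igfbp2 the 3 were Aldh1a2 (0.951), a retinoic acid synthesis gene on the fibroblast and meninges list, Prx (0.949) and Igf2 itself (0.947). Without the same 2 mice they were 0.8, 0.639 and 0.86. For Igfbp6 the most alike were Thbd (0.983), Rbp4 (0.982) and Foxc2 (0.976), and for Igf1 Colec12 (0.98), Cpne3 (0.964) and Serping1 (0.957), a complement inhibitor gene. Without the 2 mice these were 0.878, 0.904 and 0.827 for Igfbp6, and 0.935, 0.93 and 0.858 for Igf1.

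Other IGF genes had different partners. Igf1r was most like Prrc2a (0.96), Rere (0.957) and Prr12 (0.956), which were 0.956, 0.959 and 0.966 without the 2 low mice. Igf2r was most like Glipr2 (0.917, and 0.955 without the 2 low mice), Igfbp7 like Arpc1b (0.915), Igfbp5 like Pbxip1 (0.906), Igfbp4 like Gbp7 (0.943) and Igfbp3 like Arl6ip6 (0.878). Between members, Igf1 and Igf2 had r = 0.917 over 14 mice and 0.759 over 12, and Igf1 and Igf1r -0.426 and -0.386.

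Of 67 further genes of the IGF pathway, 61 were tested. Against Uninjured Control, SCI + Vehicle had 18 called (12 upregulated and 6 downregulated), and SCI + Atorvastatin had 21 (13 and 8). These are 29.5% and 34.4% of the genes tested, where 29.4% and 38.9% of all genes were called, so these shares were near or below the background. The median log2 fold change of the 61 was 0.18 and 0.12, against 0.17 and 0.21 for all genes. Between the treatments 0 were called by edgeR and 5 had an unadjusted p below 0.05, against 7.03% of all genes. Under voom with a weight per group 0 of 61 were called in both control comparisons. The number called moved with the mouse left out, both among these genes and over all genes. With each mouse left out in turn, 8 of the 18 calls and 11 of the 21 held in every fit. In both comparisons these were Gsk3b, H19, Igf2bp2, Igfbpl1, Shc1, Stc1, Stc2 and Wisp2, and in SCI + Atorvastatin also Esm1, Kazald1 and Nov. Of these, H19, Igf2bp2, Igfbpl1, Stc1, Stc2, Wisp2 and Esm1 had 0 counts in both controls and passed the TPM filter only through SCI groups. Leaving out either control could not change their control level, so holding in those fits says little for these genes. The calls named below outside this list were each lost in at least 1 fit with a mouse left out.

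Around the ligands, H19, the maternally expressed noncoding RNA 72.6 kb from Igf2 that shares its imprinting control region, had 0 counts in both controls. It had 12 to 475 counts in SCI + Vehicle (median 127) and 138 to 2375 in SCI + Atorvastatin (median 237). Against 3 counts per control library, the mean level was at least 52.3-fold and 230-fold higher. SCI + Atorvastatin replicates 2 and 7 held 2375 and 1764 counts of H19, above all other mice. Between the treatments its log2 fold change was 2.13 (95% interval 0.72 to 3.53), with an adjusted p of 0.68 in edgeR. Igf2bp2, which encodes an IGF2 mRNA-binding protein, also had 0 counts in both controls and was at least 21.1-fold and 20.5-fold higher. The growth hormone axis had Jak2 (1.81-fold, adjusted p = 0.0289 in edgeR) and Stat5b (1.68-fold, adjusted p = 0.0224) upregulated in SCI + Atorvastatin and 0 of 5 called in SCI + Vehicle, where Jak2 was 1.72-fold (adjusted p = 0.0634) and Stat5b 1.60-fold (adjusted p = 0.0548) the control level. Jak2 and Stat5b were not called in SCI + Atorvastatin vs. SCI + Vehicle, and both calls were lost without control replicate 1.

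Among the other IGF-binding and IGFBP-related proteins, 5 of 8 tested were upregulated in each comparison, where 19.8% and 24.9% of all genes were called upregulated. Of the 5, Wisp2, Igfbpl1 and Esm1 passed the TPM filter only through SCI groups. They could only come out higher, so the count cannot be weighed against these shares. Wisp2 (Ccn5), Igfbpl1 and Esm1 had 0 counts in both controls and were at least 216-fold, 13.0-fold and 10.0-fold higher in SCI + Vehicle, and at least 226-fold, 27.6-fold and 18.1-fold higher in SCI + Atorvastatin. These are bounds on group means, and for Esm1 SCI + Vehicle replicate 4 also had 0 counts. Wisp2 was at 460 to 1001 counts in SCI + Vehicle and 550 to 1001 in SCI + Atorvastatin. Kazald1 was upregulated 4.63-fold and 4.10-fold (adjusted p = 0.0319 and 0.0149 in edgeR). Cyr61 (Ccn1) was called in SCI + Vehicle at 11.8-fold, and in SCI + Atorvastatin it was at 9.15-fold (adjusted p = 0.0516 in edgeR). Nov (Ccn3) was called in SCI + Atorvastatin at 28.3-fold, and in SCI + Vehicle it was at 20.8-fold (adjusted p = 0.105 in edgeR). Control replicates 1 and 2 held 0 and 56 counts of Cyr61 and 26 and 0 of Nov, so these folds rest on few control counts. The Nov counts in SCI + Vehicle replicates 4 and 7 were 2 and 33, the lowest of that group, where the highest was 581.

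Of 7 proteases and protease regulators, Pappa2, a protease that cleaves Igfbp5 and Igfbp3, was downregulated in both comparisons (log2 fold change -3.76 and -3.43, adjusted p = 0.00723 and 0.00565 in edgeR). Its controls held 1083 and 43 counts, and the SCI mice 17 to 100, so control replicate 2 lay within the range of the SCI mice. Without control replicate 1 the log2 fold change of Pappa2 turned to 0.10 and 0.43 (adjusted p = 0.953 and 0.656), and without control replicate 2 it was -4.70 and -4.38. Pappa, the protease of Igfbp4, gave -0.30 and -0.18 (adjusted p = 0.745 and 0.843). Stc1 and Stc2, which encode inhibitors of PAPP-A proteases, had 0 counts in both controls. Stc1 was at least 19.02-fold and 13.19-fold higher, and Stc2 at least 10.1-fold and 5.94-fold higher. Htra1, a serine protease that also cleaves IGFBPs, was downregulated in SCI + Atorvastatin (log2 fold change -0.34, adjusted p = 0.0154 in edgeR). In SCI + Vehicle it was at -0.26 (adjusted p = 0.178 in edgeR).

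Downstream of the receptors, of 9 receptor adaptors Shc1 was upregulated 4.61-fold and 5.61-fold (adjusted p = 0.00177 and 0.000523 in edgeR) and Sos1 downregulated (log2 fold change -0.58 and -0.63). Of 20 PI3K, AKT and mTOR genes, 6 were called in SCI + Vehicle and 5 in SCI + Atorvastatin. These are 30.0% and 25.0% of the list, where 29.4% and 38.9% of all genes were called, so neither share exceeds the background clearly. Pik3ca, a catalytic subunit of PI3K, was upregulated in both (log2 fold change 0.39 and 0.38), and the kinase gene Gsk3b (-0.50 and -0.51) was downregulated. Rheb (-0.49 and -0.63) and Rptor (-0.60 and -0.61), which activate and scaffold mTOR complex 1, were also downregulated. Rps6kb1 was called in SCI + Vehicle (1.70-fold), and in SCI + Atorvastatin it was 1.59-fold (adjusted p = 0.0601 in edgeR). Map2k2, of the ERK pathway, was called in SCI + Atorvastatin (log2 fold change -0.59), and in SCI + Vehicle it was at -0.53 (adjusted p = 0.0524 in edgeR). The summed neuron markers were lower in the SCI groups (median 5575 and 5329 TPM) than in the controls (7605 and 9274), and their part in these differences was not tested.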

How the data were processed

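Spinal cord RNA of 16 female mice was sequenced (7 given atorvastatin after SCI, 7 given vehicle after SCI and 2 uninjured), and conditions were taken from the sample labels. Total RNA libraries were made with a stranded kit. The authors trimmed reads (Trimmomatic 0.38), aligned them to mm10 (STAR 2.5.4b) and quantified genes with RSEM 1.3.1, versions from the submitters' processing notes. They deposited whole-number counts, not normalized, and TPM, which the authors normalized for gene length and library. How the counts were made whole is not given in the sources used here. Depth was 14823292 to 25579826 counts per library.

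Of 24411 genes, the 16091 whose mean TPM exceeded 1 in any condition were tested on the counts with edgeR 4.0.16 in R 4.3.3 (glmQLFit and glmQLFTest with TMM, fitting only the pair of groups compared, with Benjamini-Hochberg adjustment over all genes tested). Genes were called at over 1.25-fold in either direction with an adjusted p below 0.05, or an unadjusted p below 0.001 between the treatments, as in the study's methods. The method was tested on simulated data. CPM (from the counts) and TPM gave levels, and levels were compared between genes only in TPM. A fold against 2 controls at 0 counts was set against 3 counts per control library. Gene positions and upstream windows are from RefSeq on GRCm38.p6, and overlapping genes from GENCODE. All 10 members matched by symbol.

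Named genes were the 10 members, 67 IGF pathway genes in fixed lists and, for each member, the 3 genes of most like profile, some of which are not reported here. Cell type lists were summed as TPM. The members and lists were chosen with earlier results of these data known. Alternatives were DESeq2 1.42.0, its size factors, library totals alone, all 3 groups in 1 fit, other gene filters, limma 3.58.1 on log2(TPM + 1) and log2(TPM + 0.1), voom with a weight per group, the replicate number as a block, and each mouse left out in turn. Leaving out SCI + Vehicle replicates 4 and 7 together was added after the data were seen. Python 3.11.15 with matplotlib 3.10.9 drew the figures.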

Additional observations from a re-analysis of the deposited data

Results flagged for a closer look

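For each of the 10 genes the highest and lowest TPM in each SCI group were set against the rest of the group with Dixon's test, in 20 groups of 7 mice. Chance flags about 1 in 20 groups, and 2 stood out, both for Igfbp3. In SCI + Atorvastatin, replicate 5 was far above the others at 29.67 TPM, the next being 18.94. In SCI + Vehicle, replicate 7 was far below the others at 6.35 TPM, the next being 12.87. Without SCI + Atorvastatin replicate 5, the log2 fold change of Igfbp3 in SCI + Atorvastatin vs. SCI + Vehicle was 0.02, against 0.23 with it.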

How the results depend on the processing

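In SCI + Vehicle vs. Uninjured Control, leaving out 1 mouse at a time gave 3 to 5 called members and 12 to 25 other pathway genes, and in SCI + Atorvastatin vs. Uninjured Control 5 to 8 and 19 to 32. Over all 16091 genes, leaving out 1 SCI mouse gave 3839 to 4804 calls in SCI + Vehicle and 5582 to 5776 in SCI + Atorvastatin. The number was largest with 1 control left out, where a fit holds no spread between controls. Voom with a weight per group gave 0 members and 0 pathway genes in both comparisons. Requiring the TPM filter in every condition gave 7 and 12 pathway calls of 47 genes tested, and 11 in SCI + Vehicle with limma on log2(TPM + 1). Over all genes the stricter filter gave 2398 and 3710 calls of 12559, and limma 4452 of 16091 in SCI + Vehicle. Between the treatments, leaving out 1 mouse gave 0 to 1 members and 0 pathway genes, and every other setting 0 of both.

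The SCI + Vehicle direction of Igfbp2 turned to 0.46 and 0.47 with limma on log2(TPM + 1) and log2(TPM + 0.1), 0.24 with voom, 0.20 with the replicate block and all 3 groups in 1 fit, and 0.11 without SCI + Vehicle replicates 4 and 7, and spanned -1.01 to 1.65 with 1 mouse left out. Without 1 mouse, Igfbp2 in SCI + Atorvastatin spanned -0.35 to 2.32, and Igfbp4 -1.37 to 0.0326 and -1.02 to 0.39. With all 3 groups in 1 fit Igfbp4 in SCI + Vehicle passed (-0.82, adjusted p = 0.0471). Igf1r between the treatments, near 0, turned to 0.0108 (library totals alone), 0.00563 and 0.00128 (other gene filters), 0.00999 and 0.0106 (limma), 0.00834 (voom), 0.00122 (replicate block) and 0.0632 (without both low mice), with -0.0705 to 0.0638 over single mice left out. The cause was not tested. The Igfbp6 call in SCI + Atorvastatin was also lost with DESeq2 size factors (adjusted p = 0.0511), all 3 groups in 1 fit (0.13), the stricter filter (0.0551) and the replicate block (0.236). Igfbp3 in SCI + Atorvastatin passed in limma (adjusted p = 0.0248 and 0.0239).

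Limma on log2(TPM + 1) moved the median log2 fold change of all genes from 0.17 to 0.49 in SCI + Vehicle and from 0.21 to 0.52 in SCI + Atorvastatin. With the replicate block 8 genes in all were called between the treatments, against 17, and 0 members. Same-numbered mice deviated together (r above 0.1) in 1 of 7 pairs, so the numbers were taken as names only. With 2 controls, each differing from the other in liver transcripts, values against Uninjured Control rest on 1 or both of these mice.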
